A study of Zea mays subsp. mays with 2 samples.

Results

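In the maize genome, 885 of the 37398 transcribed loci listed for shoots and roots stood next to a same-strand neighbour of nearly the same length. These loci formed 449 pairs. A pair was 2 loci that follow each other on the same chromosome and strand, with over 1 kb and up to 20 kb between them, each spanning at least 500 bp, the longer exceeding the shorter by at most 10%. Span counts all bases between the ends of a locus, introns included. The pairing rule used positions and no expression value. The list itself was limited by expression, as given below, so a gene that is not listed may lie between partners. The comparison set was the 5081 pairs with the same gap range and minimum span whose spans differed by more than 10%, made up of 9103 loci. Of the 885 loci, 171 also belonged to a pair of unlike span with their neighbour on the other side.

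Tandem duplication places a copy of a gene beside the original, usually in the same orientation, and unequal crossing over between such copies can lengthen or shorten the array. Copies may keep the same expression pattern, lose expression, or come to be used in different organs. Maize also carries many LTR retrotransposons, mobile elements whose long terminal repeats are direct repeats of equal length at the time of insertion, on either side of the coding part. Neighbours of similar span are therefore candidates for copies and no more. Gene copies, repeat ends and unrelated genes of similar length cannot be told apart from positions, and no sequence of the genome build used by the authors was at hand.

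The values are FPKM, fragment numbers scaled for transcript length and for the number of mapped fragments, from polyadenylated RNA of B73, the inbred line of the maize reference genome. Shoots and roots were collected separately from plants 14 days after germination, untreated as far as the labels say, and each gave 1 strand-specific single-end library. There were no replicates, so no difference between shoots and roots or between kinds of pairs has a test, and every value describes these 2 libraries. The sequencing depth is unknown. The table held no gene names, so the tissue labels could not be checked against marker genes, and loci are identified by their position on B73 RefGen_v2, as the table gives it. Every listed locus exceeded 1 FPKM in at least 1 library, so a copy silent in both organs is not listed and its pair is not counted.

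The 449 pairs made up 8.12% of the 5530 same-strand pairs in this gap range, with 28 to 70 pairs on each of the 10 chromosomes. The plus strand held 242 pairs and the minus strand 207. The partners spanned 503 to 24358 bp and lay up to 19895 bp apart, with a median gap of 5881 bp. In 8 pairs the spans were equal to the base, and in 56 they differed by at most 1%. An opposite-strand locus started or ended within the gap in 86 pairs (19.2%), against 22.1% of pairs of unlike span. In 7 pairs a longer same-strand locus that started earlier reached past the end of the first partner. At the limit of the rule, the last pair inside had spans of 2697 and 2452 bp, on chromosome 7. Its first partner stood at 8.83 FPKM in shoots and 27.6 in roots, and its second at 10.03 and 16.9 FPKM. The first pair outside, on chromosome 2, had spans of 7022 and 7731 bp. Its partners stood at 37.0 and 23.8 FPKM in shoots and at 14.96 and 25.6 FPKM in roots.

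Most of the paired loci were transcribed in both organs, at levels close to those of the whole table. At 1 FPKM or more, 729 of the 885 loci (82.4%) were detected in both organs, 106 in shoots alone and 50 in roots alone. Over all 37398 loci 81.0% were detected in both, 4340 loci in shoots alone and 2783 in roots alone. The median paired locus stood at 9.54 FPKM in shoots and 9.34 in roots, against 8.91 and 8.20 FPKM over all loci. The highest paired locus stood at 778 FPKM in shoots and the highest in roots at 1422 FPKM, where the table reached 14761 and 11878 FPKM. Listed values of 0 were found at 2 of the 885 paired loci in shoots and at 14 in roots, against 276 and 597 of all 37398 loci.

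The difference between the organs was expressed as log2((roots FPKM + 1)/(shoots FPKM + 1)), which understates differences at low levels. A locus was counted as higher in an organ when this ratio was at least 4-fold and the locus had at least 1 FPKM there. By this rule 74 paired loci (8.36%) were higher in shoots, where 7.55% of all loci were, and 47 (5.31%) were higher in roots, where 3.95% of all loci were. The median log2 ratio was 0.06 for the paired loci and 0.06 for all loci. Of the 9103 loci in pairs of unlike span, 6.89% were higher in shoots and 4.03% in roots. Of all loci of 500 bp or more, 7.74% were higher in shoots and 3.90% in roots. Taken one by one, the 885 loci thus held somewhat larger shares of organ-biased loci than any of these sets. The share higher in shoots was near that of all loci. The part of this in the shares of pairs given below was not tested.

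The partners of a pair more often had the same organ bias when their spans were alike. Both partners were higher in shoots in 11 of 449 pairs (2.45%), where 0.866% of pairs of unlike span were, and both were higher in roots in 7 pairs (1.56%), where 0.571% of pairs of unlike span were. Together 18 pairs (4.01%) had both partners higher in the same organ, against 1.44% of the pairs of unlike span. A single biased partner was found in 82 pairs (18.3%), and in 18.0% of pairs of unlike span. Partners biased towards opposite organs made up 3 pairs (0.668%), against 0.472%. Among pairs with at least 1 biased partner, the other partner shared the bias in 17.5% of 103 pairs of similar span and in 7.21% of 1013 pairs of unlike span. The larger share with similar spans was seen on 7 of 10 chromosomes, with 0 to 4 such pairs on each. Chromosome 7 had 2.13% against 2.84% for unlike spans, and chromosomes 8 and 9 had none. The count rested on the added FPKM and the fold limit: with 5 FPKM added, 4 pairs (0.891%) passed, against 0.315% for unlike spans, and at 8-fold 5 pairs (1.11%) against 0.453%.

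**Figure D1:**
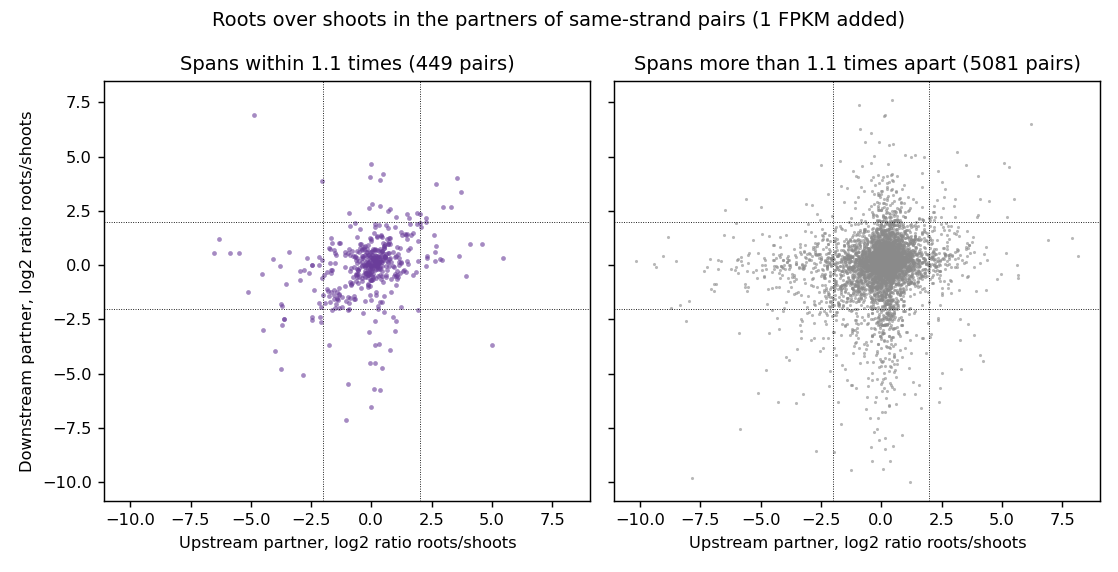
Each point is a pair of consecutive same-strand loci. The axes give the log2 ratio of roots over shoots of the upstream and the downstream partner, with 1 FPKM added, and dotted lines mark 4-fold differences. In the left panel, with 449 pairs of similar span, 9.58% of points show both partners at least 2-fold higher in shoots (lower left), against 4.05% in the right panel, with 5081 pairs of unlike span.

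Across pairs, Spearman's rho between the partners' log2 ratios was 0.35 for similar spans and 0.16 for unlike spans. The coefficient was the higher for similar spans on 9 of 10 chromosomes, the exception being chromosome 3 with 0.13 against 0.15, and it reached 0.53 on chromosome 4. All pairs come from the same 2 libraries, and neighbouring pairs can share a locus, so these coefficients describe the table. The median absolute difference between the partners' log2 ratios was 0.63 for similar and 0.75 for unlike spans, with quartiles of 0.23 and 1.51 against 0.31 and 1.61. This difference was the smaller for similar spans on 7 of 10 chromosomes. The order was reversed with gaps over 10000 bp, at 0.88 against 0.82, and with the shorter span above 4000 bp, at 0.59 against 0.54.

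The share of pairs with a common organ bias was highest where spans were closest and lowest where they differed most. With spans within 2%, 8 of 117 pairs (6.84%) had both partners higher in the same organ. The share was 3.38% of 148 pairs with spans over 2% and up to 5% apart, 2.72% of 184 pairs up to 10%, and 2.93% of 375 pairs up to 20%. Beyond that it was 2.40% with the longer span up to 1.5 times the shorter, 1.55% up to 2 times, 0.998% up to 4 times and 0.779% of 1283 pairs above 4 times. The rank correlation was 0.40, 0.27 and 0.39 in the first 3 of these classes and 0.08 in the last. The share thus showed no break at the limit of 10%, while the rank correlation was 0.39 just inside it and 0.23 just outside. The rank correlations were uneven, however. With the longer span over 1.2 and up to 1.5 times the shorter the value was 0.25, near the 0.27 found inside the limit. Span itself moves with these classes: the shorter partner had a median span of 2642 bp in pairs of similar span and 1846 bp in the others. With both spans held to 1000 to 4000 bp, a limit chosen after the values were seen, both partners were higher in the same organ in 16 of 268 pairs of similar span (5.97%) and in 34 of 1245 pairs of unlike span (2.73%). The rank correlations were then 0.34 and 0.20, and the median absolute differences between the partners' log2 ratios were 0.79 and 0.83.

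**Figure D2:**
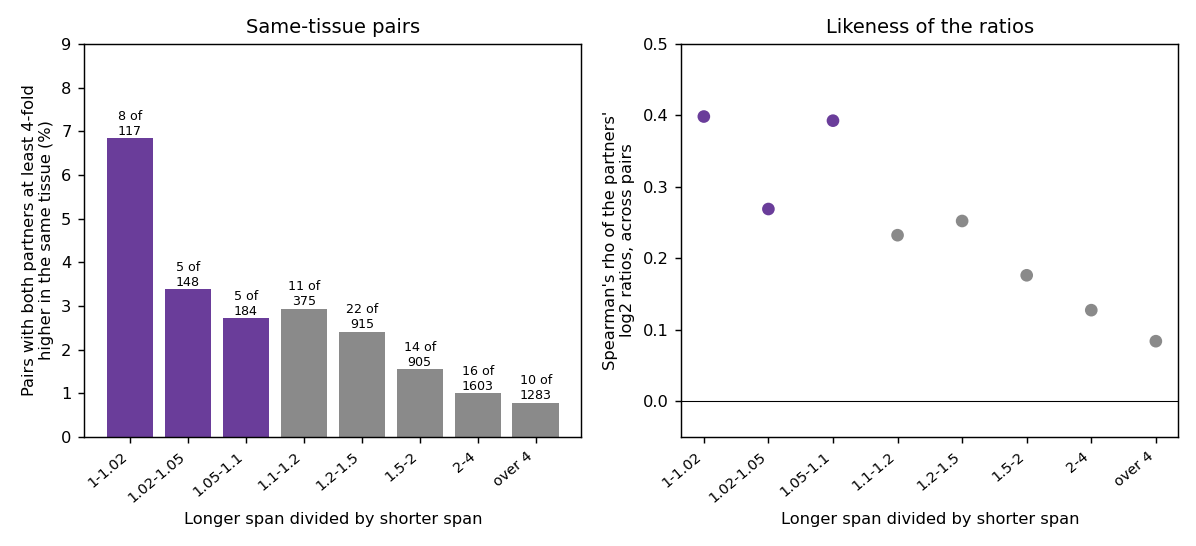
The left panel gives the share of pairs in percent with both partners at least 4-fold higher in the same organ, and the right panel Spearman's rho of the partners' log2 ratios across pairs. Both are plotted by the ratio of the longer to the shorter span, purple up to a difference of 10% and grey above. The share is 6.84% in the first class and 0.779% in the last.

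The contrast between similar and unlike spans was not the same in every class of gap, length or level. By gap, the rank correlations of similar and unlike spans were 0.32 and 0.13 up to 2500 bp, 0.40 and 0.18 over 5000 and up to 10000 bp, and 0.38 and 0.13 above that. Over 2500 and up to 5000 bp they were 0.19 and 0.18. By length, pairs whose shorter partner spanned 500 to 1000 bp had the highest correlation, 0.75 over 49 pairs, against 0.29 for unlike spans of that length. It was 0.17 over the 116 pairs above 4000 bp, against 0.007 for unlike spans of that length. None of these 116 pairs had both partners higher in the same organ, against 1 of 712 pairs (0.140%) of unlike span. By level, the correlations were 0.43 and 0.19 where the less abundant partner stayed under 5 FPKM in its higher organ. They were 0.04 and 0.26, in the reverse order, at 40 FPKM or more, over 34 pairs of similar span.

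The 11 pairs with both partners higher in shoots ranged from some of the more abundant paired loci to loci of a few FPKM. Ordered by the shoot level of the lower partner, the first lay on chromosome 4 (plus strand), from 3256234 to 3258478 and from 3260685 to 3262840, spanning 2245 and 2156 bp. Its first partner stood at 472 FPKM in shoots and 65.2 in roots, and its second at 214 FPKM in shoots and 5.38 in roots. The log2 ratios were -2.84 and -5.07, so the partners were both higher in shoots and differed from each other far more in roots than in shoots. A minus-strand pair of chromosome 6, from 116412050 to 116414219 and from 116419547 to 116421620, stood at 138 and 37.5 FPKM in shoots and at 4.07 and 1.85 FPKM in roots. There the first partner was the more abundant in both organs.

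Other pairs were nearly matched in level. The minus-strand partners of chromosome 1 from 24801900 to 24805494 and from 24807416 to 24811279 stood at 14.8 and 15.7 FPKM in shoots and at 0.0319 and 0.0452 FPKM in roots. Minus-strand partners of equal span on chromosome 5 (1265 bp, from 179595155 to 179596419 and from 179602950 to 179604214) stood at 22.0 and 18.6 FPKM in shoots and at 3.02 and 2.52 FPKM in roots. In both pairs the organs were far apart and the partners close together. Partners far apart in level were seen on chromosome 6 (minus strand), from 14355774 to 14356980 and from 14359316 to 14360497, where the partners stood at 9.38 and 126 FPKM in shoots and at 0.535 and 8.81 FPKM in roots. Both were higher in shoots, and the second partner was the more abundant in each organ. The sixth pair in this order, on chromosome 2 (minus strand), from 219513299 to 219514433 and from 219522549 to 219523697, had 7.83 and 39.7 FPKM in shoots and 0.609 and 2.34 FPKM in roots.

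Both partners were higher in roots in 7 pairs, of which the most abundant was on chromosome 2 (minus strand), from 24817372 to 24818971 and from 24834408 to 24836108. Its partners stood at 201 and 122 FPKM in roots and at 30.6 and 14.7 FPKM in shoots, with log2 ratios of 2.68 and 2.97. A plus-strand pair of chromosome 2, from 3224667 to 3227301 and from 3229041 to 3231915, had 54.0 and 21.4 FPKM in roots and 3.63 and 0.378 FPKM in shoots. Of a plus-strand pair on chromosome 1, from 200247647 to 200250741 and from 200266919 to 200270072, the roots had 28.9 and 17.6 FPKM and the shoots 3.64 and 0.398 FPKM. In these 3 pairs the first partner was the more abundant in both organs.

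The other named root pairs were lower. For a plus-strand pair on chromosome 4, from 240225659 to 240227771 and from 240232550 to 240234575, the partners had 21.5 and 14.2 FPKM in roots and 0.709 and 0.482 FPKM in shoots. For a minus-strand pair on chromosome 2, from 6972021 to 6972995 and from 6974430 to 6975364, they had 12.9 and 26.7 FPKM in roots and 1.73 and 5.86 FPKM in shoots. A plus-strand pair of chromosome 10, from 130620219 to 130623137 and from 130625338 to 130628466, had 7.89 and 20.9 FPKM in roots and 0.828 and 3.89 FPKM in shoots. In the latter 2 pairs the second partner was the more abundant in both organs.

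**Figure D3:**
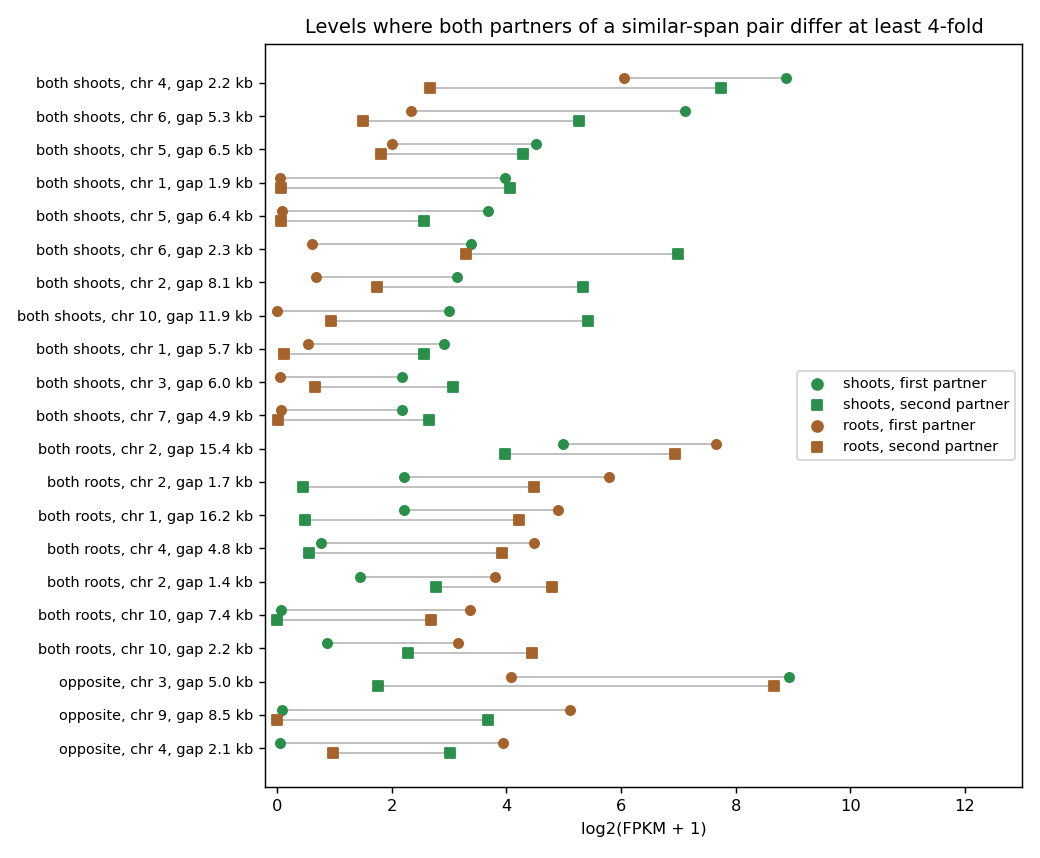
Each row is a pair of similar span in which both partners differed at least 4-fold between the organs, labelled by the organ, the chromosome and the gap. Circles show the partner first along the chromosome and squares the second, in shoots (green) and roots (brown), as log2(FPKM + 1) with 1 library per organ. In 11 pairs the green mark of each partner lies right of its brown one, in 7 pairs it lies left for both, and in 3 pairs the partners are opposed.

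In 3 pairs the partners were biased towards opposite organs, and the widest contrast of any pair was among them. On the plus strand of chromosome 3, the partner from 187602497 to 187604635 (2139 bp) stood at 489 FPKM in shoots and 15.9 in roots. Its neighbour, P_XLOC_012167, from 187609671 to 187611938 (2268 bp), stood at 2.39 FPKM in shoots and 406 in roots. The log2 ratios were -4.85 and 6.91, 5035 bp apart on the same strand, and P_XLOC_012167 had the largest root bias of any paired locus at 10 FPKM or more. Chromosome 9 held a plus-strand pair in which the partner from 142935494 to 142936742 had 0.0666 FPKM in shoots and 33.5 in roots, while the partner from 142945256 to 142946552 had 11.9 FPKM in shoots and was listed at 0 in roots. Minus-strand partners of chromosome 4 that differed in span by 1 bp, from 38722673 to 38725633 and from 38727742 to 38730701, were also opposed. The first had 0.0333 FPKM in shoots and 14.3 in roots, and the second 7.06 FPKM in shoots and 0.964 in roots.

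With a lower limit, 1 partner at least 2-fold higher in shoots and the other at least 2-fold higher in roots, 11 pairs (2.45%) were opposed, close to the 2.60% of pairs of unlike span. Ordered by the lowest of their 4 values, the first lay on chromosome 3 (plus strand), from 3459125 to 3462998 and from 3475915 to 3479657. Its partners stood at 119 and 63.6 FPKM in shoots and at 244 and 9.94 FPKM in roots. A minus-strand pair of chromosome 5, from 23255201 to 23259599 and from 23264687 to 23268702, had 25.3 and 34.6 FPKM in shoots and 5.89 and 81.9 FPKM in roots. The partners on chromosome 2 (minus strand), from 9970341 to 9977865 and from 9984163 to 9991524, had 8.05 and 26.9 FPKM in shoots and 17.2 and 10.2 FPKM in roots, so the more abundant partner differed between the organs.

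The most frequent form of organ bias in these pairs was bias of a single partner. In the 82 such pairs the biased partner was higher in shoots in 51 and in roots in 31. For unlike spans these were 586 and 330 of 916 pairs. In pairs of similar span the biased partner was the upstream one in 44 (53.7%), against 48.6% for unlike spans. It was the more abundant of the pair, by the sum over both organs, in 50 (61.0%), against 63.0%. These shares were thus near those of unlike spans. The other partner lay within 2-fold in 61 (74.4%), against 76.5% of such pairs of unlike span. Leaning here means the sign of the log2 ratio alone, whatever its size. Beside a shoot-biased partner the other leaned towards shoots in 25 of 51 pairs (49.0%), against 46.1% for unlike spans. Beside a root-biased partner it leaned towards roots in 25 of 31 (80.6%), against 67.0% for unlike spans. The examples that follow were drawn from the 32 of these pairs with the other partner within 2-fold and both partners at 10 FPKM or more in an organ. No matching count was made for unlike spans.

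The widest of these single-sided contrasts were shoot-biased. Of a minus-strand pair on chromosome 8, the partner from 111823880 to 111830792 had 101 FPKM in shoots and 0.108 in roots, while its neighbour from 111799986 to 111807525 had 49.95 and 74.1 FPKM. Chromosome 4 carried M_XLOC_016267 on its minus strand, from 238355940 to 238357484, with 109 FPKM in shoots and 0.192 in roots, and its neighbour from 238358526 to 238359959 had 30.1 and 30.2 FPKM. The partner from 42609145 to 42613069 on the minus strand of chromosome 6 had 95.8 FPKM in shoots and 0.684 in roots, beside one from 42597052 to 42601033 at 19.9 and 29.5 FPKM. In all 3 pairs the unbiased partner was well above 10 FPKM in both organs. Of a plus-strand pair on chromosome 7, the partner from 97622711 to 97626695 had 60.9 FPKM in shoots and 0.160 in roots, beside a partner from 97615127 to 97619263 at 217 and 280 FPKM.

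The strongest shoot bias of a paired locus at 10 FPKM or more was that of M_XLOC_011822, on chromosome 3 (minus strand), from 147397873 to 147401506. It had 778 FPKM in shoots and 4.57 in roots, a log2 ratio of -7.13. Its partner, from 147403660 to 147407494, had 21.8 FPKM in shoots and 10.2 in roots, a log2 ratio of -1.03. Next to P_XLOC_012167 in root bias was M_XLOC_009273, on chromosome 2 (minus strand), from 199209858 to 199211602, with 3.62 FPKM in shoots and 200.3 in roots. Its partner, from 199206138 to 199207781, had 0.750 and 1.24 FPKM. None of these 3 loci, nor M_XLOC_016267, the second in shoot bias, had a partner past 4-fold in the same direction. What genes these are is not given by the table.

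Partners of similar span were also closer in level than partners of unlike span. The median absolute difference in log2 level between partners was 1.35 in shoots and 1.39 in roots, against 1.71 and 1.83 for unlike spans. It was the smaller for similar spans on 9 of 10 chromosomes in shoots and on 9 of 10 in roots. Both partners lay within 2-fold of each other in both organs in 121 pairs (26.9%) of similar and 18.7% of unlike span. Across pairs, the rank correlation between partner levels was 0.27 in shoots and 0.33 in roots, against 0.07 and 0.10. Where the less abundant partner stayed under 5 FPKM in its higher organ, the level differences were 1.44 and 1.44 against 2.34 and 2.34. With both partners at 5 FPKM or more in an organ the contrast narrowed, to 1.30 against 1.40 in shoots and 1.34 against 1.51 in roots. At 40 FPKM or more they were 0.90 in shoots and 1.27 in roots, against 0.99 and 1.21, so in roots the order was reversed there.

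The same partner was usually the more abundant in both organs, in nearly equal shares of pairs of similar and unlike span. In 210 pairs of similar span the partners were at least 2-fold apart in both organs, and in 193 of them (91.9%) the same partner was the higher. For unlike spans this was 91.8% of 2894 pairs. The upstream partner had the larger sum over both organs in 249 of 449 pairs (55.5%), against 52.2% for unlike spans. Among the most abundant pairs, one on chromosome 10 (plus strand), from 86414459 to 86419149 and from 86421166 to 86425500, had 463 and 103 FPKM in shoots and 1422 and 177 FPKM in roots. Its first partner was the higher in each organ.

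The other 3 pairs with all 4 values high had closer partners. For the minus-strand pair of chromosome 4, from 237508371 to 237511930 and from 237521017 to 237524915, the partners had 91.0 and 124 FPKM in shoots and 105 and 160 FPKM in roots. The minus-strand pair of chromosome 8, from 156723828 to 156725452 and from 156728561 to 156730114, had 128 and 86.0 FPKM in shoots and 252 and 138 FPKM in roots. The plus-strand pair of chromosome 7, from 172767849 to 172769655 and from 172779032 to 172780863, had 125 and 161 FPKM in shoots and 283 and 124 FPKM in roots. In the last pair the more abundant partner differed between the organs.

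The pairs with the closest spans had a median gap of 5885 bp, close to the 5881 bp of all pairs of similar span, but more of them fell within one range of gaps, and there most had closely matched levels. Of the 56 pairs whose spans differed by at most 1%, 17 (30.4%) had a gap of over 5000 and up to 7500 bp, against 18.3% of all pairs of similar span and 15.1% of pairs of unlike span. Of the 8 pairs with equal spans, 6 had such a gap. These limits of span and gap were chosen after the values were seen. In these 17 pairs the median absolute difference in log2 level between partners was 0.16 in shoots and 0.19 in roots, and 12 pairs lay within 2-fold in both organs. In the 39 pairs with equally close spans and other gaps it was 1.68 in shoots and 1.84 in roots, and 12 lay within 2-fold in both. For unlike spans with a gap in that range it was 1.65 and 1.80. The 17 pairs also had shorter partners, with a median shorter span of 1346 bp against 2960 bp in the 39. The part of span in the difference was not tested.

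**Figure D4:**
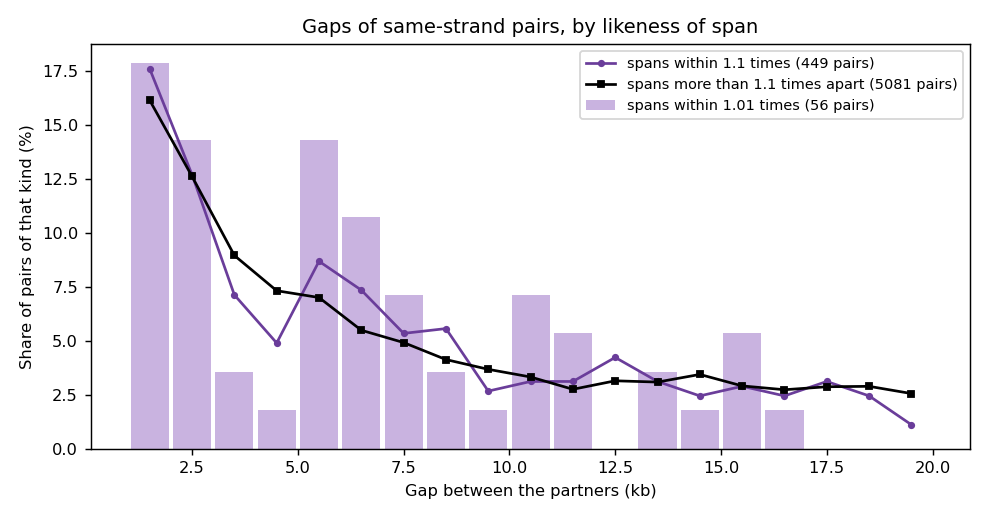
The share of pairs, in percent of each kind, is plotted by gap in bins of 1 kb. Bars show the 56 pairs with spans within 1%, purple points all 449 pairs of similar span and black squares the 5081 pairs of unlike span. From 5 to 6 kb the bars reach 14.3%, where unlike spans stand at 7.01%.

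In 2 of the 17 pairs the partners were listed with identical FPKM in both organs. On the minus strand of chromosome 1, the loci from 74728949 to 74732821 and from 74738551 to 74742423, each of 3873 bp, both had 7.10 FPKM in shoots and 3.63 in roots. Likewise, the plus-strand loci of chromosome 7 from 161172160 to 161172907 and from 161179810 to 161180557, each of 748 bp, both had 8.32 and 4.18 FPKM. None of the 5081 pairs of unlike span had identical values in both organs. Over the whole list, 33 pairs of loci shared the same values above 0 in both organs. How reads that map to more than 1 place were divided is not given in the sources used here, so for partners of near-identical sequence the values may not be separate measurements.

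The other equal-span pairs had distinct values, close in some and far apart in others. The 1345 bp plus-strand loci of chromosome 7 from 49380747 to 49382091 and from 49387745 to 49389089 had 1.56 and 1.86 FPKM in shoots and 1.16 and 1.24 FPKM in roots. The 1706 bp loci of chromosome 1 (minus strand), from 251489141 to 251490846 and from 251496588 to 251498293, had 6.55 and 4.95 FPKM in shoots and 0.449 and 0.0901 FPKM in roots. Of equal-span partners these were both higher in shoots, as were the 1029 bp loci of the plus strand of chromosome 5. Those loci, from 76656109 to 76657137 and from 76663535 to 76664563, had 11.9 and 4.94 FPKM in shoots and 0.0567 and 0.0564 FPKM in roots. The equal-span pairs outside that range of gaps differed from each other. The 563 bp loci of chromosome 3 (plus strand), from 19362257 to 19362819 and from 19370759 to 19371321, had 10.6 and 11.8 FPKM in shoots and 8.94 and 9.08 FPKM in roots. The 812 bp loci of chromosome 10 (plus strand), from 1788804 to 1789615 and from 1805274 to 1806085, lay 15658 bp apart and had 2.57 and 13.3 FPKM in shoots and 0.230 and 5.51 FPKM in roots.

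Many of these near-equal pairs leaned towards shoots. Both partners were at least 2-fold higher in shoots in 9 of the 17 pairs (52.9%), against 5.61% of the 766 pairs of unlike span with the same gap, and in 4 of the 39 near-equal pairs with other gaps. Both were at least 2-fold higher in roots in 1 of the 17, and in 23 of the 766. For example, the plus-strand loci of chromosome 4 from 80230411 to 80231048 and from 80238335 to 80238978 had 40.03 and 40.9 FPKM in shoots and 12.9 and 13.3 FPKM in roots. On the minus strand of chromosome 1, the loci from 246880882 to 246882909 and from 246888449 to 246890464 had 12.8 and 13.6 FPKM in shoots and 4.26 and 4.70 FPKM in roots. Both examples, singled out after their values were seen, had partners within 1.2-fold in each organ. Without the 17 pairs, 15 of 432 pairs of similar span (3.47%) still had both partners at least 4-fold higher in the same organ, and the rank correlation was 0.32.

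**Figure D5:**
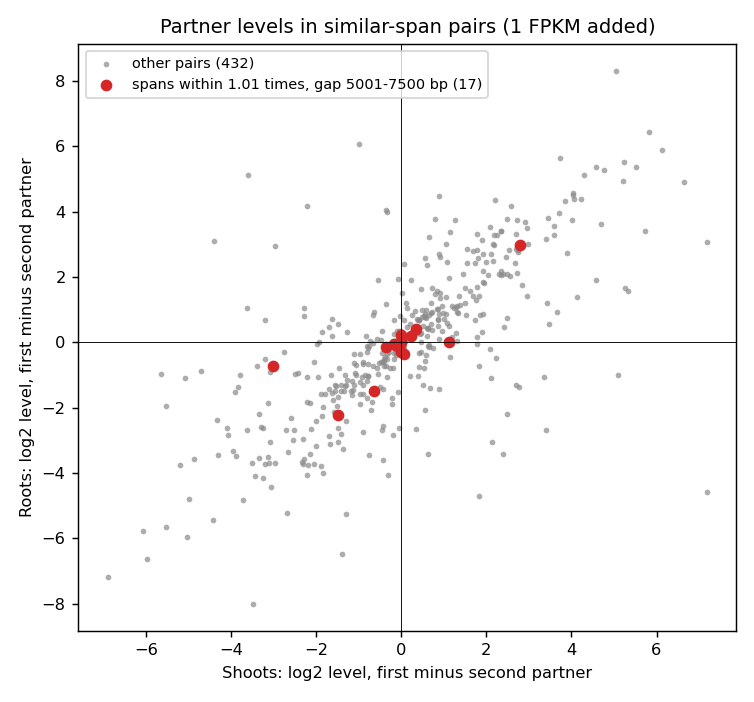
Each point is a pair of similar span. The axes give the difference in log2(FPKM + 1) between the first and the second partner along the chromosome, in shoots and in roots. Of the 17 pairs with spans within 1% and gaps of over 5000 and up to 7500 bp (red), 12 lie within 2-fold on both axes and 2 lie at least 2-fold from 0 on both. Their median absolute difference is 0.16 in shoots and 0.19 in roots. The other 432 pairs are grey.

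Over all pairs of similar span, a lean of at least 2-fold shared by both partners was more frequent than over unlike spans, towards either organ. Both partners were at least 2-fold higher in shoots in 43 pairs (9.58%), where 4.05% of pairs of unlike span were, and both at least 2-fold higher in roots in 26 (5.79%), where 2.89% were. Pairs that leaned to an organ were short in both kinds. In the 43 shoot pairs of similar span the shorter partner had a median span of 1475 bp, against 2642 bp over all pairs of that kind, and in the 206 shoot pairs of unlike span it had 1110 bp, against 1846 bp. In the 26 root pairs the medians were 1120 bp for similar and 1214 bp for unlike spans. Low levels were likewise seen in the shoot pairs of both kinds. The less abundant partner stood at a median of 4.49 FPKM in its higher organ for similar spans, against 7.06 FPKM over all pairs of that kind, and at 4.59 FPKM against 6.48 FPKM for unlike spans. It stayed under 10 FPKM in 31 of the 43 (72.1%) and in 71.4% of the 206. In the root pairs it stood at a median of 8.40 FPKM for similar and 7.20 FPKM for unlike spans.

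Runs of more than 2 loci were rare. The 449 pairs formed 423 separate pairs and 13 chains of 3 loci, and no chain was longer. By the sign of the log2 ratio alone, whatever its size, all 3 loci were higher in roots in 6 chains and in shoots in 2, and 5 were mixed. The median log2 ratio of all loci was 0.06, on the side of roots. No matching share was counted for runs of unlike span. As the chains tie in number of loci, those with the longest stretch are given. The longest, 39569 bp on chromosome 4 (plus strand), from 219581608 to 219621176, held loci of 3516, 3678 and 3473 bp. In order along the chromosome they stood at 4.15, 24.2 and 48.3 FPKM in shoots and at 86.2, 49.2 and 63.0 FPKM in roots. The loci were thus within 2-fold of each other in roots and further apart in shoots.

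The next longest, 34753 bp on chromosome 10 (minus strand), from 88536115 to 88570867, held loci of 723, 666 and 645 bp. They stood at 0.758, 6.07 and 20.7 FPKM in shoots and at 3.68, 41.4 and 35.8 FPKM in roots. All 3 had more in roots, and the middle locus alone passed the 4-fold limit. A plus-strand chain of chromosome 6, from 165124965 to 165157662, had 4.004, 76.5 and 50.7 FPKM in shoots and 9.22, 102 and 133 FPKM in roots. Its 3 loci were all higher in roots, by less than 4-fold. On the minus strand of chromosome 1, a chain singled out after its values were seen, from 267146934 to 267162919, held 3 loci of 954 to 1009 bp. They had 26.02, 5.12 and 21.7 FPKM in shoots and 0, 7.24 and 113 FPKM in roots. Its outer loci were biased towards opposite organs, and the locus between them was not biased.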

How the data were processed

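Polyadenylated RNA of B73 maize shoots and roots was measured with 1 strand-specific single-end library per tissue, sequenced for 100 cycles per the labels. The authors deposited 1 table of FPKM values. TopHat, Cufflinks and Cuffdiff are named in the submitters' processing notes; versions, settings and the treatment of multiply mapped reads are not stated in any source used here. The build, B73 RefGen_v2, is named per the file header. None of the 37398 identifiers matched the 49888 genes of the RefSeq table at hand, of assembly Zm-B73-REFERENCE-NAM-5.0, whose coordinates were not used. No sequence is printed.

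Loci were sorted by chromosome, strand and start. The gap is the next start minus the end minus 1. Ratios used a pseudocount of 1 FPKM and calls a 4-fold limit, with no scaling between tissues. With 1 library per tissue no test, standard error or p-value is given, and the depth is unknown. The members, lists and limits were chosen with earlier results of these data known. Pairs were named by level, by size of contrast, by equality of span and by chain length, under a written rule. Alternatives covered the pseudocount, low values, scaling, the fold limit, span, gap, opposite-strand loci and shared loci. The code was tested on simulated data. Python 3.11.15, pandas 2.3.3, NumPy 2.4.6 and matplotlib 3.10.9 were used.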

Additional observations from a re-analysis of the deposited data

How the results depend on the processing

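No alternative setting changed the sign of a contrast between similar and unlike spans. Within single classes of gap, length or level some contrasts were reversed, as given above. Of 123 values under other settings, 93 stayed close to those reported and 30 moved. Close means within 1.5 times for counts, and otherwise within the 95% sampling interval of the value for similar spans, which takes pairs as independent. Pairs of 2 libraries are not replicates, so this interval served as a yardstick only and does not measure variation between libraries. Values called close could still differ: the contrast in rank correlation, 0.19, was 0.12 with gaps up to 5000 bp and 0.23 above. The contrast in the partners' difference in log2 ratio, -0.12, was -0.05 with both spans of 1000 to 4000 bp. Setting strand medians to 0 shifts both partners alike, so it could not change that difference.

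Counts moved largely with the limits themselves. There were 265 pairs with spans within 5%, 824 within 20%, 190 with gaps up to 5000 bp and 259 with gaps above 5000 bp. Loci higher in shoots numbered 124 with a pseudocount of 0.1 FPKM, 34 with 5 FPKM, 165 at 2-fold, 36 at 8-fold, 125 with spans within 20%, and 27 and 48 in the shorter and longer gaps. Loci higher in roots numbered 22 with 5 FPKM, 133 at 2-fold, 18 at 8-fold, 27 with spans within 5%, 84 within 20%, and 17 and 30 in the 2 gap ranges. Pairs with both partners higher in the same organ numbered 36 with 0.1 FPKM, 4 with 5 FPKM, 69 at 2-fold, 5 at 8-fold, 29 with spans within 20%, and 8 and 10 in the 2 gap ranges.

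The excess of such pairs over unlike spans, 2.57 percentage points, was 0.576 with 5 FPKM, 8.42 at 2-fold and 0.661 at 8-fold. The level contrast of -0.37 in shoots and -0.44 in roots (log2) was -0.10 and -0.17 with both partners at 5 FPKM or more, and the cause was not tested. The contrasts without the 17 near-equal pairs and with spans of 1000 to 4000 bp were added after seeing the data. No paired analysis was possible because shoots and roots gave a single library each, which also means that none could be left out.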
